A study of Mus musculus with 15 samples.

Results

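Wnt signalling genes were described across neurons, astrocytes and microglia of the mouse cortex. The set comprised every gene of the deposited table whose name marked it as a Wnt ligand (Wnt), a Frizzled receptor (Fzd), a secreted Frizzled-related protein (Sfrp), a Dickkopf protein (Dkk) or an R-spondin (Rspo). It also took in the receptors Lgr4, Lgr5 and Lgr6, the co-receptors Lrp5 and Lrp6, Axin1 and Axin2, beta-catenin (Ctnnb1) and the TCF factors Tcf7, Tcf7l1 and Tcf7l2. The name pattern found 52 of the 20610 genes in the table, and the pattern itself uses gene names and no expression value. The series held 15 polyA RNA-seq libraries, 5 of neurons, 5 of astrocytes and 5 of microglia, all from the cortex of WT male mice at postnatal day 28 (P28), with no transgene or treatment named in the labels. The cells had been enriched magnetically, and each library is the bulk RNA of such an isolate, so that fewer cells of a type and less RNA per cell cannot be told apart. Which animals the libraries came from is not labelled, so p-values measure the spread between libraries only, and that spread may be technical. Values are TPM, a transcript's share of its library scaled for transcript length, which allow levels of different genes to be set side by side. TPM keeps no read depth, and the depth behind each value is unknown.

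Wnt proteins are secreted, lipid-modified ligands that bind Frizzled receptors on nearby cells. With the co-receptors Lrp5 or Lrp6, this binding halts the breakdown of beta-catenin by a complex built on Axin, and beta-catenin then joins TCF factors on DNA to switch on target genes. R-spondins, through Lgr4 to Lgr6, raise the number of receptors at the cell surface, while Sfrp and most Dkk proteins hold the signal down. In the brain, Wnt7a and Wnt7b are best known as signals that induce vessel growth and the blood-brain barrier in endothelial cells, and Norrin (Ndp), an unrelated protein, acts through Fzd4 to the same end in retina and brain.

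The isolates carried transcripts of their labelled cell types, together with transcripts of other cells. The 12 pan-neuronal markers summed to 966 to 1959 TPM in the neuron libraries, 158 to 323 TPM in the astrocyte libraries and 22.0 to 155 TPM in the microglia libraries. The 14 astrocyte markers summed to 202 to 359 TPM in neurons, 22930 to 26268 TPM in astrocytes and 321 to 756 TPM in microglia, and the 13 microglia markers to 113 to 191 TPM in neurons, 218 to 317 TPM in astrocytes and 85375 to 129117 TPM in microglia. The 14 endothelial markers summed to 29465 to 43713 TPM in the neuron libraries, more than the pan-neuronal sum in each of them, against 2249 to 2964 TPM in astrocytes and 405 to 839 TPM in microglia. All 14 were called higher in neurons than in astrocytes and than in microglia, and none was listed at 0 throughout a cell type. The 11 mural cell markers summed to 2406 to 4554 TPM in neurons, 1533 to 2215 TPM in astrocytes and 89.0 to 219.5 TPM in microglia. Oligodendrocyte markers reached 69786 TPM and 52001 TPM in microglia libraries 1 and 2, with 252 to 8179 TPM in the other microglia libraries. In neurons they reached 8469 TPM and 10369 TPM in libraries 1 and 2 and 212 to 1638 TPM in the others, and in astrocytes 445 to 3810 TPM. Oligodendrocyte precursor markers summed to 55.2 to 289 TPM in neurons, 495 to 997 TPM in astrocytes and 17.6 to 179 TPM in microglia. Fibroblast markers ranged over 168 to 313 TPM in neurons, 236 to 337 TPM in astrocytes and 32.3 to 55.8 TPM in microglia, and choroid plexus and ependymal markers over 161 to 355 TPM in neurons, 238 to 602 TPM in astrocytes and 15.2 to 62.1 TPM in microglia. The part of these other cells in the differences below was not tested.

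More members were enriched in the astrocyte libraries than in the neuron libraries, whose endothelial marker sum exceeded the pan-neuronal sum, and no member was enriched in the microglia libraries. Of the 52 members, 33 had at least 1 TPM in at least 5 libraries and were tested, 19 were not, and 13 stayed below 1 TPM in every library. A gene could pass that filter through a single cell type, so counts over the 33 do not describe all 52. Lgr6, Sfrp5 and Wnt6 passed it only through the astrocyte libraries, and Wnt16 only through the neuron libraries. For these genes, the lack of overlap with other cell types and the p-values are not independent of the filter. A gene was called different when the moderated test of limma gave a Benjamini-Hochberg adjusted p below 0.05 over all 13351 tested genes and the log2 difference on the log2(TPM + 1) scale was at least 1. That scale understates the differences of genes with low values. Enriched means called higher than in both other cell types. In neurons 5 members were enriched (Ctnnb1, Fzd6, Rspo3, Tcf7 and Wnt16), which is 15.2% of those tested, where 9.58% of all tested genes were enriched there. In astrocytes 11 members were enriched (Dkk3, Fzd1, Fzd2, Fzd8, Fzd9, Lgr4, Lgr6, Sfrp5, Wnt6, Wnt7a and Wnt7b), or 33.3%, beside 10.2% of all tested genes. In microglia 0 members were enriched, where 7.42% of all tested genes were.

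The 3 comparisons share libraries, so they are given side by side. Neurons against astrocytes gave 5 members called higher and 11 called lower, with 17 not called. Over all tested genes 12.9% were called higher and 12.7% lower, or 25.6% in either direction. The median difference was -0.60 for the members and -0.03 for all tested genes. Neurons against microglia gave 19 members higher and 0 lower, beside 29.5% higher and 9.74% lower (39.3% in either direction) over all genes. Astrocytes against microglia gave 24 members higher and 0 lower, beside 32.3% higher and 10.2% lower (42.5% in either direction). Median differences from microglia were 1.18 for the members and 0.48 for all genes in neurons, and 1.61 and 0.57 in astrocytes. At an unadjusted p below 0.05 in limma, 25 members were higher and 1 lower (Tcf7l2) in neurons than in microglia. In astrocytes 28 were higher and 1 lower (Lrp5) than in microglia. The share of all tested genes at that unadjusted threshold was not counted, so these counts are not read as particular to the members. Median-of-ratios scaling moved the median of all genes by -0.51 in neurons and -0.54 in astrocytes against microglia. For neurons against microglia, higher calls were then 55.8% of all calls, where they were 75.2% without that scaling. Then 15 of the 33 tested members were called higher and 1 lower, Tcf7l2, beside 2654 higher and 2104 lower of all 13351 genes. For astrocytes against microglia, higher calls were 53.4% of all calls, beside 76% without that scaling. There 19 members were called higher and 0 lower, beside 2618 higher and 2283 lower of all 13351 genes. Under quantile normalization, higher calls were 55.6% of all calls for neurons against microglia, with 11 members higher, beside 2447 of all 13351 genes. For astrocytes against microglia they were 54.7% of all calls, with 18 members higher, beside 2471 of all genes. Calls over microglia that both scalings ended were those of Fzd3, Fzd9, Sfrp1 and Wnt7b in neurons and of Fzd4, Rspo1, Sfrp4, Wnt5a and Wnt5b in astrocytes, and quantile normalization alone also ended those of Axin2, Sfrp2, Wnt4 and Wnt11 in neurons and of Rspo3 in astrocytes.

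**Figure D1:**
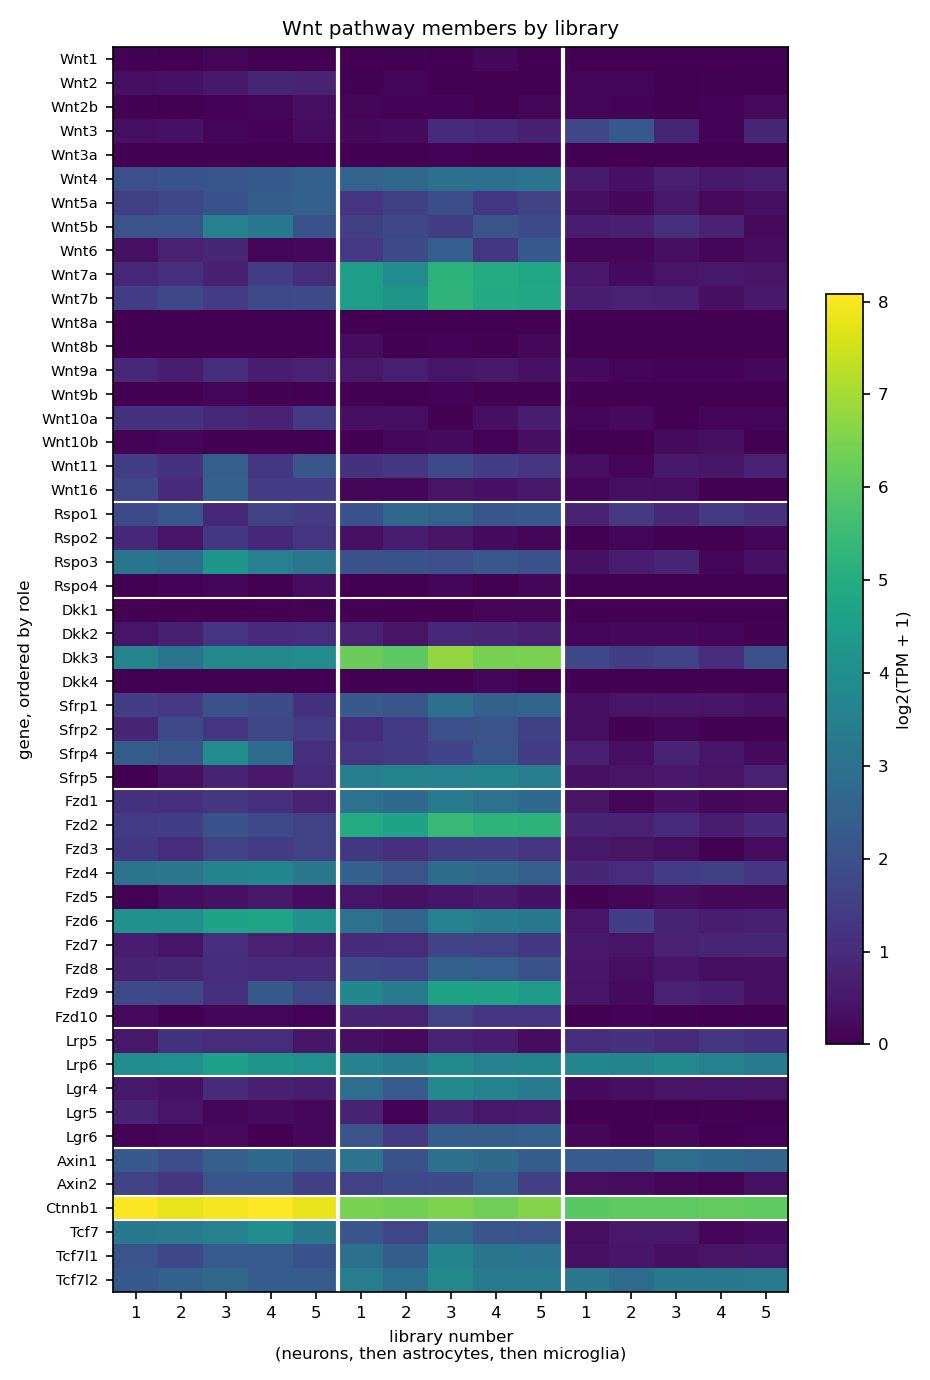
Heat map of log2(TPM + 1) for 52 Wnt pathway genes (rows, ordered by role, white lines between roles) in 15 libraries (columns, 5 per cell type, neurons, then astrocytes, then microglia). Ctnnb1 is the brightest row in the neuron and microglia columns and is passed by Dkk3 in astrocyte libraries 3 and 4, Wnt7a, Wnt7b, Fzd2 and Dkk3 are bright in the astrocyte columns, and most rows are dark in the microglia columns.

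**Figure D2:**
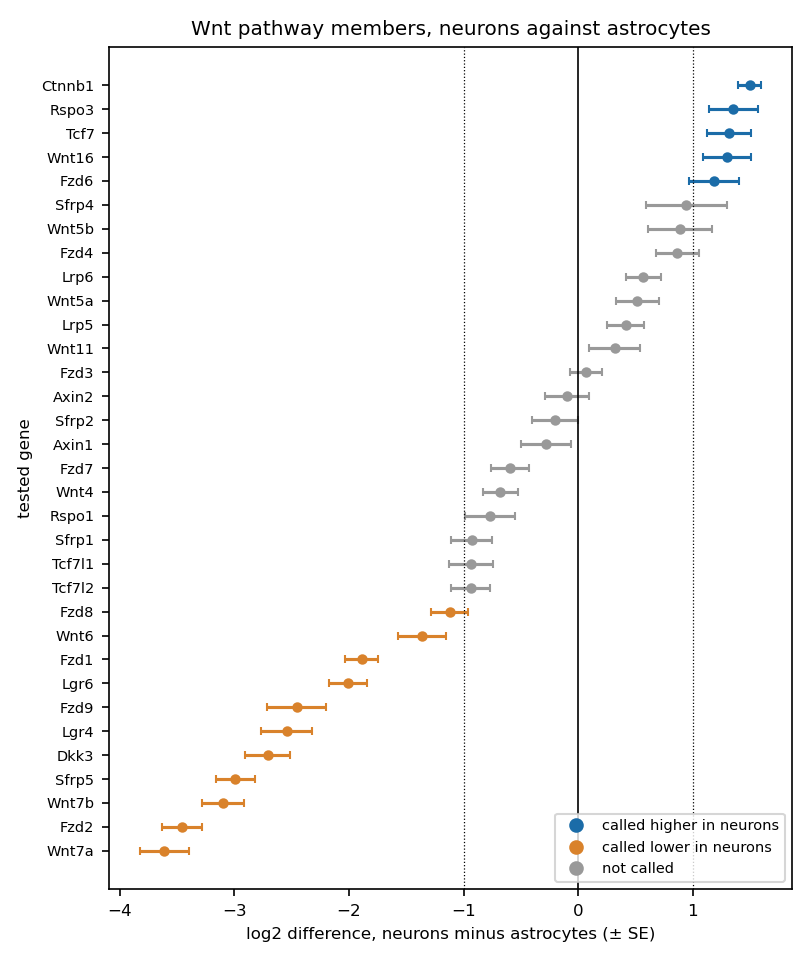
Log2 difference, neurons minus astrocytes, on the log2(TPM + 1) scale for the 33 tested members, with the standard error from limma as bars and dotted lines at 1 and -1. The 11 genes called lower in neurons reach -3.61 (Wnt7a), farther from 0 than the 5 called higher, whose largest difference is 1.5 (Ctnnb1).

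Upstream sequence is shown for 4 enriched members whose RefSeq gene starts are annotated, as examples from the 2 enriched sets: Wnt7a, Sfrp5 and Fzd1 of the astrocyte set and Wnt16 of the neuron set. The windows are the 250 bases before the RefSeq start (GRCm38.p6), 5′ to 3′, with the 6-letter core of the TCF motif, CTTTGA or its reverse complement TCAAAG, in capitals.
Wnt7a, chr6:91411354-91411603, minus strand: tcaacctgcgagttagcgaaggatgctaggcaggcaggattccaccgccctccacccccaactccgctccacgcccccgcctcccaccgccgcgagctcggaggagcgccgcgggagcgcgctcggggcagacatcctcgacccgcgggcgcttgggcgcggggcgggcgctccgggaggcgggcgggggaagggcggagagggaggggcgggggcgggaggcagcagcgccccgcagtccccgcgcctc
Sfrp5, chr19:42202253-42202502, minus strand: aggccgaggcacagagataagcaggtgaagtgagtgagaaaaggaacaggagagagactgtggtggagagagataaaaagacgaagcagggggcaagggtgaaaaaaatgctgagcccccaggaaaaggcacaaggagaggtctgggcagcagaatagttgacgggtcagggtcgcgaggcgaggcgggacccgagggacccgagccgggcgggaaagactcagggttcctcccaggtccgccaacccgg
Fzd1, chr5:4758217-4758466, minus strand: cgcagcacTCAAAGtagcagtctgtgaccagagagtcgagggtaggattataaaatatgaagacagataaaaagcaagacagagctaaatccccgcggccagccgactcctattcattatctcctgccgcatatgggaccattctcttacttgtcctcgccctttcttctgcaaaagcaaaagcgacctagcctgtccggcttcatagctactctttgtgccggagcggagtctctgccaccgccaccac
Wnt16, chr6:22287977-22288226, plus strand: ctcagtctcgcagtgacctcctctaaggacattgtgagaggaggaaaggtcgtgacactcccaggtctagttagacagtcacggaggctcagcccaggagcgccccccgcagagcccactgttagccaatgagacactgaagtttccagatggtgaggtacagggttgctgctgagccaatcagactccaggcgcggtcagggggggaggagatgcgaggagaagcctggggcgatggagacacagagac
The Fzd1 window holds one TCAAAG, starting at base -242 from the gene start, and the letters were not found in the windows of Wnt7a, Sfrp5 and Wnt16. RefSeq windows were matched for 34 of the 52 members (40 windows, some genes having several starts). The core was found in 4 of these 40 windows, 10%, beside 4544 of 32851 windows of all genes, 13.8%. The median GC content was 69.4% in the member windows and 52.4% in all windows, and the median number of CpG dinucleotides was 22.5 and 6. These matches describe letters only.

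Among the 19 Wnt ligands, Wnt7a and Wnt7b made up most of the astrocyte signal. Wnt7a (chr6:91363981-91411363, minus strand, GENCODE vM21 on mm10) measured 0.91, 1.15, 0.65, 1.76 and 1.1 TPM in the 5 neuron libraries, 21.5, 13.8, 36.1, 30.3 and 26.5 TPM in the 5 astrocyte libraries and 0.44, 0.17, 0.35, 0.45 and 0.35 TPM in the 5 microglia libraries. Every astrocyte library lay above every other library, with the lowest astrocyte value, in library 2, still far over the highest neuron value. On the scale of TPM + 1, on which all folds here are given, Wnt7a was 12.2-fold lower in neurons than in astrocytes (log2 difference -3.61, SE 0.213, adjusted p = 1.73e-10, limma). Mean TPM was 1.11 in neurons and 25.7 in astrocytes, a larger ratio. Wnt7b (chr15:85535437-85582473, minus strand), a close relative with the same known role at brain vessels, measured 1.75, 2.35, 1.72, 2.46 and 2.69 TPM in the 5 neuron libraries, 21.7, 18.3, 37.5, 29.5 and 27.8 TPM in the 5 astrocyte libraries and 0.52, 0.67, 0.64, 0.26 and 0.46 TPM in the 5 microglia libraries. Its groups did not overlap either, and astrocyte libraries 3 and 4 were again the highest (neurons against astrocytes, log2 difference -3.10, SE 0.183, adjusted p = 1.76e-10). Against microglia, astrocytes were higher by 4.24 for Wnt7a (adjusted p = 6.05e-12) and 4.18 for Wnt7b (adjusted p = 9.88e-13) on the log2 scale. Wnt7b was also called higher in neurons than in microglia, at levels of a few TPM (log2 difference 1.08, SE 0.183, adjusted p = 4.81e-05), while Wnt7a did not reach the size threshold there (log2 difference 0.63, SE 0.213, adjusted p = 0.0144). Of the summed TPM of the 19 ligands in astrocytes, Wnt7b held 38.8 ± 0.823% and Wnt7a 36.4 ± 4.25% (mean ± SD, n = 5).

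Other ligands were lower and spread more evenly. Wnt4 (chr4:137277489-137299726, plus strand), a ligand known from kidney and gonad development, measured 2.92, 3.09, 3.26, 3.89 and 4.69 TPM in the 5 neuron libraries, 4.9, 5.48, 6.94, 6.76 and 7.5 TPM in the 5 astrocyte libraries and 0.5, 0.32, 0.6, 0.43 and 0.53 TPM in the 5 microglia libraries. It was called higher in neurons and in astrocytes than in microglia (1.62 and 2.30), and between neurons and astrocytes the groups did not overlap but the difference of -0.68 was under the size threshold. Wnt5b (chr6:119432531-119544347, minus strand), a ligand that acts largely without beta-catenin, measured 3.19, 3.27, 11.1, 8.55 and 3.1 TPM in the 5 neuron libraries, 1.9, 2.31, 1.78, 3.15 and 2.48 TPM in the 5 astrocyte libraries and 0.56, 0.62, 1.16, 0.66 and 0.15 TPM in the 5 microglia libraries. Neuron libraries 3 and 4 were far above the other 3, which lay just over the highest astrocyte value or below it. Wnt5b was called higher in neurons than in microglia (log2 difference 1.93, SE 0.281, adjusted p = 8.14e-06, limma). The Wnt5b difference of neurons from astrocytes was not called (0.89, adjusted p = 0.0124), but passed without neuron library 1 (1.03), 2 (1.02) or 5 (1.03). With 1 library left out at a time, that difference ranged over 0.645 to 1.034. The call of astrocytes over microglia (1.04) was lost without astrocyte library 4 (0.96) or microglia library 5 (0.92).

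Wnt16 was the ligand enriched in neurons, at 1.01 to 4.7 TPM there, 0.08 to 0.48 TPM in astrocytes and 0 to 0.26 TPM in microglia. Neuron library 3 was the highest, and the neuron values did not overlap with the others (neurons against astrocytes, log2 difference 1.30, SE 0.208, adjusted p = 4.27e-05). Wnt16 passed the filter only through the neuron libraries, so this separation is not independent of the filter. Wnt6, enriched in astrocytes, ranged over 0.11 to 0.84 TPM in neurons, 1.46 to 4.35 TPM in astrocytes and 0.08 to 0.26 TPM in microglia (-1.36 for neurons against astrocytes, adjusted p = 2.61e-05). Wnt5a and Wnt11, 2 further ligands that act largely without beta-catenin, were called higher in neurons than in microglia. Wnt5a was also called higher in astrocytes than in microglia (1.21), and Wnt11 (0.95) passed there without astrocyte library 1 (1.01) or microglia library 5 (1.03). Wnt5a ranged over 1.92 to 4.63 TPM in neurons, 1.35 to 2.85 TPM in astrocytes and 0.12 to 0.47 TPM in microglia, and Wnt11 over 1.21 to 4.49 TPM in neurons, 1.26 to 2.44 TPM in astrocytes and 0.07 to 0.67 TPM in microglia. The 11 untested ligands included Wnt3, whose microglia values were 2.3, 3.7, 0.77, 0.06 and 0.84 TPM, while it stayed at 0.05 to 0.32 TPM in neurons and 0.14 to 0.96 TPM in astrocytes. The 2 highest of these Wnt3 values were in microglia libraries 1 and 2, which also carried the oligodendrocyte marker sums given above, and the part of those cells was not tested. Wnt10a (0.69 to 1.57 TPM), Wnt9a (0.54 to 1.06 TPM) and Wnt2 (0.27 to 0.77 TPM) were detected at low level in neurons, and 8 of the ligands, Wnt2 among them, stayed below 1 TPM in every library. Wnt8a was listed at 0 in all 15. Summed over the 19 ligands, levels were 23.9 ± 6.28 TPM in neurons, 69.5 ± 18.4 TPM in astrocytes and 4.77 ± 1.35 TPM in microglia (n = 5 each).

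**Figure D3:**
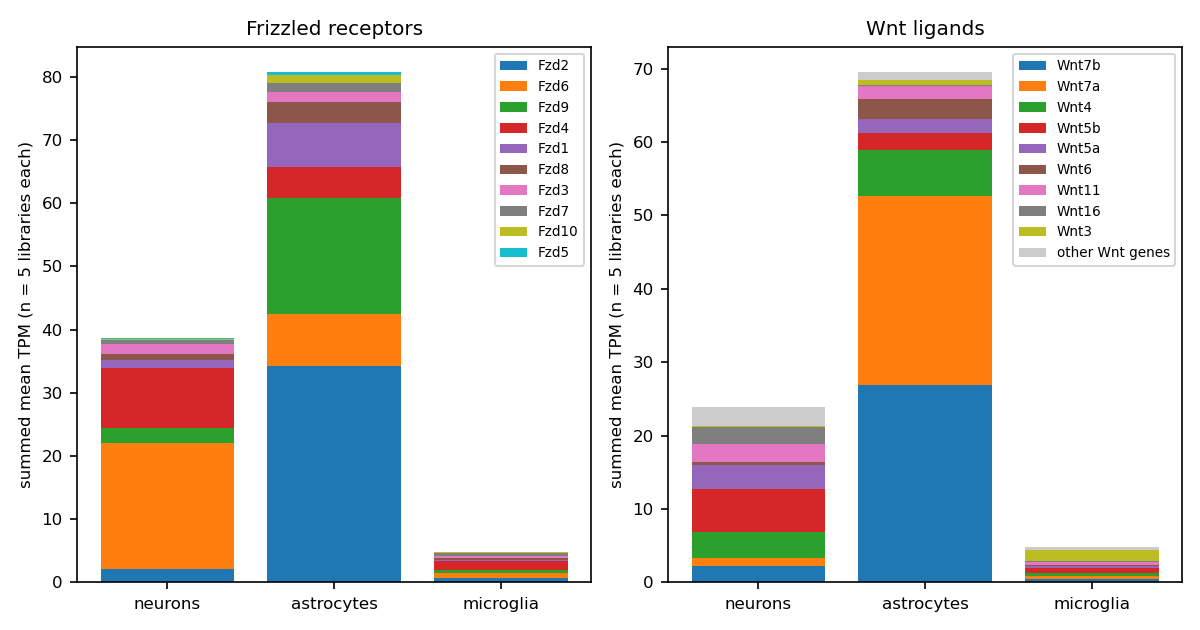
Stacked bars of mean TPM for the Frizzled receptors (left) and the Wnt ligands (right) in neurons, astrocytes and microglia (n = 5 libraries each, no error bars). Fzd2 and Fzd9 fill most of the astrocyte receptor bar and Fzd6 and Fzd4 most of the neuron bar, and Wnt7a and Wnt7b fill most of the astrocyte ligand bar.

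Of the 4 R-spondins, Rspo3 (chr10:29452416-29535867, minus strand) was enriched in neurons and Rspo1 was highest in astrocytes. Rspo3, which is known in vessels as a signal that maintains Wnt activity, measured 7.89, 6.63, 18.1, 10.4 and 7.94 TPM in the 5 neuron libraries, 3.04, 3.07, 2.91, 3.58 and 3.11 TPM in the 5 astrocyte libraries and 0.3, 0.58, 0.78, 0.08 and 0.3 TPM in the 5 microglia libraries. Neuron library 3 stood highest, and the lowest neuron value was still above every astrocyte value. Rspo3 was called higher in neurons than in astrocytes (log2 difference 1.35, SE 0.214, adjusted p = 3.77e-05) and than in microglia (log2 difference 2.93, SE 0.214, adjusted p = 1.35e-09), and higher in astrocytes than in microglia (1.58). The endothelial and mural marker sums given above were also higher in the neuron libraries, and their part in Rspo3 and Wnt16 was not tested. Rspo1 ranged over 0.87 to 3.56 TPM in neurons, 3.08 to 5.48 TPM in astrocytes and 0.71 to 1.58 TPM in microglia, and it was called only for astrocytes over microglia (log2 difference 1.24, SE 0.217, adjusted p = 5.99e-05). Rspo2 reached 1.49 TPM in a neuron library and Rspo4 0.2 TPM at most, and neither was tested.

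The secreted inhibitors separated into an astrocyte pair, Dkk3 and Sfrp5, and Sfrp4, which was highest in neurons. Dkk3 (chr7:112116017-112159057, minus strand), a divergent Dickkopf whose action on Wnt signalling is less settled than that of Dkk1, measured 11.8, 7.8, 13.5, 13.5 and 13.9 TPM in the 5 neuron libraries, 76.5, 65.1, 108, 85.3 and 86.8 TPM in the 5 astrocyte libraries and 2.36, 1.84, 1.97, 1.05 and 3.01 TPM in the 5 microglia libraries. The 3 cell types did not overlap in any pair. On the scale of TPM + 1, Dkk3 was 6.55-fold lower in neurons than in astrocytes (log2 difference -2.71, SE 0.196, adjusted p = 2.69e-09). On that scale it was 4.32-fold higher in neurons than in microglia and 28.3-fold higher in astrocytes than in microglia. Mean TPM was 12.1 in neurons, 84.3 in astrocytes and 2.05 in microglia. Sfrp5 (chr19:42197971-42202252, minus strand), a decoy that binds Wnt proteins outside the cell, measured 0, 0.25, 0.74, 0.47 and 0.99 TPM in the 5 neuron libraries, 10, 11.2, 10.8, 11.2 and 9.56 TPM in the 5 astrocyte libraries and 0.28, 0.35, 0.48, 0.35 and 0.66 TPM in the 5 microglia libraries. Its astrocyte values lay close together, and neuron and microglia values overlapped below 1 TPM (neurons against astrocytes, log2 difference -2.99, SE 0.169, adjusted p = 9.60e-11). Sfrp4 (chr13:19623104-19632994, plus strand), a decoy of the same family, measured 4.2, 3.48, 14.5, 6.32 and 1.17 TPM in the 5 neuron libraries, 1.34, 1.58, 2.06, 3.31 and 1.74 TPM in the 5 astrocyte libraries and 0.59, 0.27, 0.7, 0.39 and 0.17 TPM in the 5 microglia libraries. Neuron library 3 was the highest and neuron library 5 lay below every astrocyte value. Sfrp4 was called higher in neurons than in microglia (log2 difference 2.00, SE 0.354, adjusted p = 7.14e-05). Its difference between neurons and astrocytes, 0.94 (adjusted p = 0.0318), missed the size threshold, and it passed without neuron library 5 (1.29), neuron library 2 (1.03) or astrocyte library 4 (1.08). With 1 library left out at a time, that difference ranged over 0.579 to 1.287. The Sfrp4 call for astrocytes over microglia (1.06) was lost without astrocyte library 4 (0.92) or microglia library 5 (0.99). Sfrp1 and Sfrp2 were called higher than in microglia in both neurons and astrocytes. Sfrp1 ranged over 1.28 to 3.08 TPM in neurons, 3.47 to 6.89 TPM in astrocytes and 0.23 to 0.4 TPM in microglia, and its neuron and astrocyte values did not overlap (-0.93, under the size threshold, which it passed without neuron library 3 at -1.04 or astrocyte library 2 at -1.01). Sfrp2 ranged over 0.82 to 2.43 TPM in neurons, 1.07 to 3.19 TPM in astrocytes and 0 to 0.24 TPM in microglia. The classical inhibitors Dkk1 and Dkk4 stayed at 0.09 TPM or less in every library, and Dkk2 reached 1.3 TPM.

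The Frizzled receptors differed in kind between the cell types, with Fzd2 and Fzd9 leading in astrocytes and Fzd6 and Fzd4 in neurons. Fzd2 (chr11:102604396-102608058, plus strand) measured 1.68, 1.81, 3.09, 2.43 and 1.99 TPM in the 5 neuron libraries, 30.4, 24.6, 43.5, 37.0 and 36.0 TPM in the 5 astrocyte libraries and 0.7, 0.69, 0.98, 0.53 and 0.9 TPM in the 5 microglia libraries. All astrocyte libraries were above all others. On the scale of TPM + 1, Fzd2 was 11.0-fold lower in neurons than in astrocytes (log2 difference -3.46, SE 0.173, adjusted p = 1.81e-11), with mean TPM of 2.2 and 34.3. Fzd9 (chr5:135248938-135251230, minus strand), a receptor whose gene lies in the human region deleted in Williams syndrome, measured 2.42, 2.27, 1.19, 3.93 and 2.38 TPM in the 5 neuron libraries, 12.6, 9.25, 24.8, 24.3 and 21.3 TPM in the 5 astrocyte libraries and 0.38, 0.18, 0.69, 0.56 and 0.25 TPM in the 5 microglia libraries. Astrocyte libraries 1 and 2 were lower than libraries 3 to 5, but still above every neuron library (neurons against astrocytes, log2 difference -2.46, SE 0.258, adjusted p = 3.27e-07). Fzd1 (chr5:4753839-4758035, minus strand), whose upstream window is printed above, measured 1.29, 1.18, 1.41, 1.18 and 0.74 TPM in the 5 neuron libraries, 7.22, 5.88, 9.14, 7.18 and 5.78 TPM in the 5 astrocyte libraries and 0.34, 0.11, 0.31, 0.14 and 0.15 TPM in the 5 microglia libraries. The astrocyte values stood apart from both other groups (log2 difference -1.89, SE 0.145, adjusted p = 6.07e-09 for neurons against astrocytes). Fzd8 was enriched in astrocytes at 2.08 to 4.7 TPM, with 0.73 to 1.09 TPM in neurons and 0.22 to 0.41 TPM in microglia (-1.12 for neurons against astrocytes). That call was lost without the libraries numbered 3 and 4 (-0.92).

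Fzd6 (chr15:39006034-39038188, plus strand), a receptor best known for the orientation of hairs and other planar polarity, measured 16.7, 16.7, 24.2, 25.2 and 16.2 TPM in the 5 neuron libraries, 7.04, 5.24, 10.7, 9.23 and 8.59 TPM in the 5 astrocyte libraries and 0.37, 1.78, 0.7, 0.56 and 0.63 TPM in the 5 microglia libraries. Neuron libraries 3 and 4 were the highest, and no neuron value overlapped with an astrocyte value. Fzd6 was called higher in neurons than in astrocytes (log2 difference 1.19, SE 0.218, adjusted p = 1.74e-04) and than in microglia (log2 difference 3.54, SE 0.218, adjusted p = 1.29e-10). Fzd4 (chr7:89404355-89413134, plus strand), the receptor of Norrin in vessels, measured 7.6, 8.29, 11.3, 12.2 and 8.51 TPM in the 5 neuron libraries, 4.63, 3.16, 6.29, 5.52 and 4.49 TPM in the 5 astrocyte libraries and 0.82, 1.02, 1.65, 1.89 and 1.43 TPM in the 5 microglia libraries. Neurons and astrocytes did not overlap here, but the difference stayed under the size threshold (log2 difference 0.87, SE 0.190, adjusted p = 9.12e-04), while both were called higher than microglia (2.16 and 1.30). The endothelial marker sum had the same order of cell types as Fzd6 and Fzd4. Within the neuron libraries that sum was highest in library 5, where Fzd6 was lowest, and Ly6c1 alone held 31922 TPM of the 43713 TPM there. Of the single markers, Ly6c1, Cldn5 and Slc2a1 were highest in neuron library 5. The other endothelial markers were highest in neuron library 3 or 4, as Fzd6 and Fzd4 were. The part of endothelial transcripts in Fzd6 and Fzd4 was not tested. As shares of the summed TPM of all 10 Frizzled genes, Fzd6 held 51.0 ± 1.68% and Fzd4 24.7 ± 0.877% in neurons, where Fzd2 held 5.67 ± 0.713%. In astrocytes Fzd2 held 43.0 ± 2.61% and Fzd9 22.2 ± 4.0%, with Fzd6 at 10.1 ± 0.238%. In microglia, where the sum was only 4.88 ± 0.675 TPM, Fzd4 held 27.6 ± 7.20% and Fzd6 16.6 ± 11.6%. The sums were 38.7 ± 7.91 TPM in neurons and 80.7 ± 20.6 TPM in astrocytes. Fzd3 was called higher in neurons than in microglia (log2 difference 1.07, SE 0.138, adjusted p = 1.90e-06). Its difference between astrocytes and microglia lay just under the size threshold and passed without astrocyte library 1 (1.001), 2 (1.06) or 5 (1.02) or microglia library 1 (1.05) or 2 (1.03). Fzd7 was called in no comparison, and Fzd5 and Fzd10 were not tested, Fzd10 reaching 2.03 TPM in an astrocyte library.

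**Figure D4:**
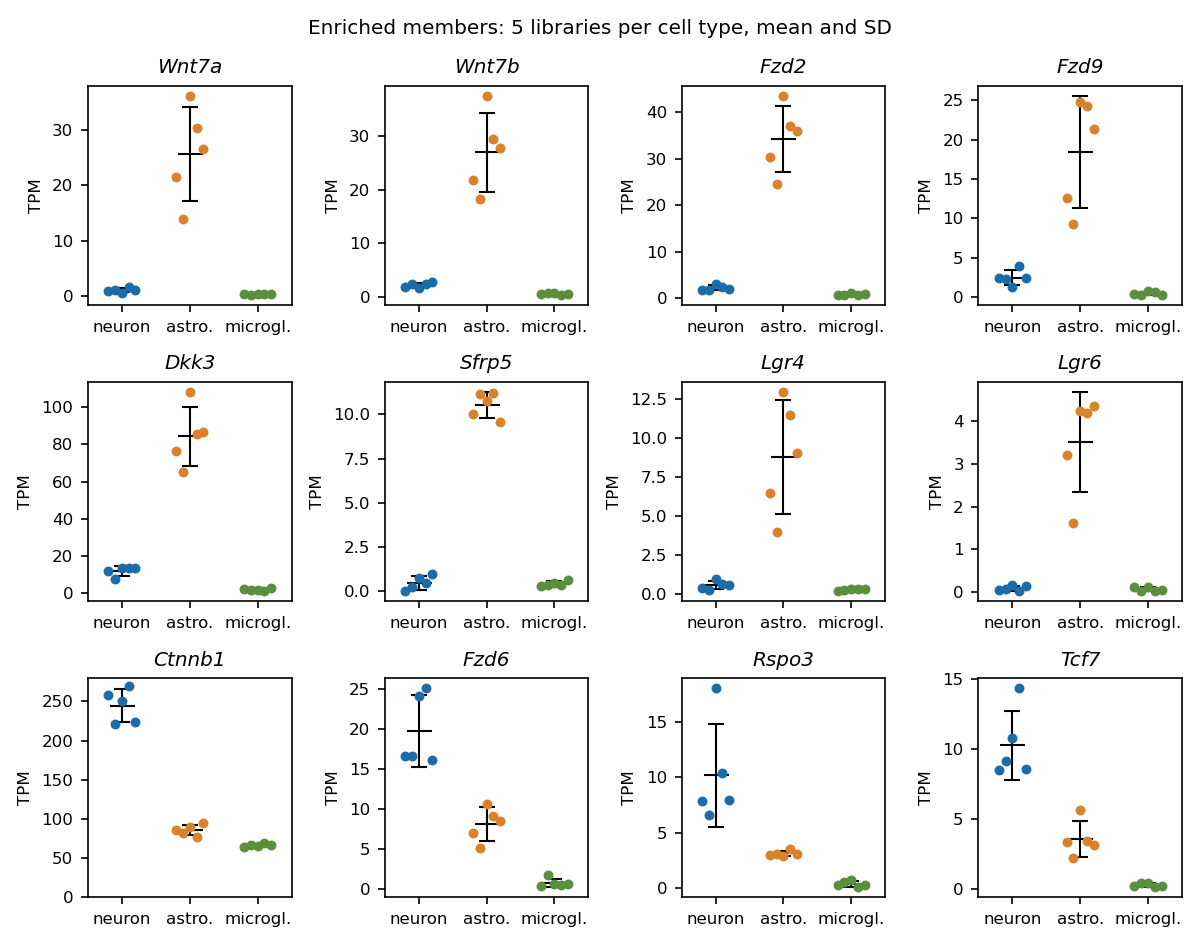
TPM of 12 enriched members in each library (points, 5 per cell type, side by side in library order) with the mean and SD. The first 8 panels show genes enriched in astrocytes, where Wnt7a reaches 36.1 TPM and Dkk3 108 TPM, and the last 4 genes enriched in neurons, where Ctnnb1 lies between 221.5 and 269.6 TPM.

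The co-receptor Lrp6 was called in no comparison, and the R-spondin receptors Lgr4 and Lgr6 were enriched in astrocytes. Lrp6 (chr6:134446476-134566965, minus strand) measured 14.5, 15.6, 22.8, 17.2 and 15.6 TPM in the 5 neuron libraries, 11.0, 8.99, 13.5, 10.9 and 11.4 TPM in the 5 astrocyte libraries and 12.2, 11.4, 13.5, 10.4 and 8.85 TPM in the 5 microglia libraries. All neuron libraries were above all astrocyte and microglia libraries, yet the differences stayed under the size threshold (0.57 for neurons against astrocytes, adjusted p = 0.00485, and 0.56 for neurons against microglia, adjusted p = 0.00397). The difference from microglia turned to -0.015 under median-of-ratios scaling. Lrp5, its close relative, ranged over 0.4 to 1.27 TPM in neurons, 0.15 to 0.72 TPM in astrocytes and 0.96 to 1.4 TPM in microglia, and it was the one member with a lower value in every astrocyte library than in any microglia library (astrocytes against microglia, log2 difference -0.67, SE 0.160, adjusted p = 0.00108, not called). It was called lower in astrocytes with a pseudocount of 0.1 (-1.57) and under quantile normalization (-1.24). Lgr4 (chr2:109917647-110014257, plus strand) measured 0.44, 0.3, 1, 0.64 and 0.57 TPM in the 5 neuron libraries, 6.45, 4.01, 12.9, 11.5 and 9.02 TPM in the 5 astrocyte libraries and 0.19, 0.26, 0.34, 0.37 and 0.35 TPM in the 5 microglia libraries. The astrocyte values varied widely, lowest in library 2 and highest in library 3, and lay above all others (neurons against astrocytes, log2 difference -2.54, SE 0.223, adjusted p = 3.25e-08). Lgr6 ranged over 0.02 to 0.16 TPM in neurons, 1.61 to 4.36 TPM in astrocytes and 0.02 to 0.13 TPM in microglia, with no overlap of astrocytes and the rest (neurons against astrocytes, log2 difference -2.01, SE 0.166, adjusted p = 1.58e-08). Lgr6 passed the filter only through the astrocyte libraries, so this separation is not independent of the filter. Lgr5, a stem cell marker of the gut, stayed below 1 TPM in every library. Astrocyte library 3 held the highest value in 9 of the 11 members enriched in astrocytes, and library 2 the lowest in 8 of them. The share over all genes was not counted. Among the 14 astrocyte markers, Sox9, Slc1a3, Aqp4, Aldh1l1, Slc7a10, Acsbg1, Gja1 and Fgfr3 were also highest in astrocyte library 3 and lowest in library 2. Gfap and Gjb6 were highest in library 3 too, while Slc1a2, Aldoc, Ntsr2 and S100b were not.

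Inside the cell, beta-catenin and Tcf7 were enriched in neurons, and the other TCF factors and Axin followed other orders. Ctnnb1 (chr9:120929216-120960507, plus strand), which encodes both the signalling protein and a partner of cadherins at cell contacts, measured 258, 222, 250.1, 269.6 and 224 TPM in the 5 neuron libraries, 86.1, 81.8, 89.9, 77.4 and 94.6 TPM in the 5 astrocyte libraries and 64.0, 67.0, 66.2, 69.4 and 67.0 TPM in the 5 microglia libraries. The neuron values stood apart from both others. On the scale of TPM + 1 they were at 2.82-fold the astrocyte level (log2 difference 1.5, SE 0.0986, adjusted p = 7.60e-10) and 3.62-fold the microglia level (log2 difference 1.86, SE 0.0986, adjusted p = 1.76e-11). The small difference between astrocytes and microglia (0.36) was not called, and its sign turned under median-of-ratios scaling (-0.32) and quantile normalization (-0.08). Tcf7 (chr11:52252371-52283014, minus strand), the factor TCF1 known from T cells, measured 8.5, 9.12, 10.8, 14.3 and 8.53 TPM in the 5 neuron libraries, 3.36, 2.22, 5.66, 3.39 and 3.15 TPM in the 5 astrocyte libraries and 0.23, 0.44, 0.42, 0.1 and 0.19 TPM in the 5 microglia libraries. Neuron library 4 was the highest and no groups overlapped, with differences of 1.32 for neurons against astrocytes (adjusted p = 1.49e-05), 3.12 for neurons against microglia and 1.80 for astrocytes against microglia. The part of the endothelial transcripts in the neuron values of Ctnnb1 and Tcf7 was not tested.

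Tcf7l1 (chr6:72626378-72789254, minus strand), often a repressor of the pathway, measured 3.22, 2.38, 4.01, 3.98 and 3.12 TPM in the 5 neuron libraries, 6.86, 4.21, 11.2, 7.75 and 7.46 TPM in the 5 astrocyte libraries and 0.28, 0.41, 0.26, 0.34 and 0.38 TPM in the 5 microglia libraries. Neurons and astrocytes did not overlap, with a difference just under the size threshold (log2 difference -0.93, SE 0.190, adjusted p = 4.77e-04) that passed it without astrocyte library 2 (-1.10). With 1 library left out at a time, that difference ranged over -1.096 to -0.788. Both cell types were called higher than microglia (1.69 and 2.62). Tcf7l2 ran in another order, at 3.72 to 5.43 TPM in neurons, 6.69 to 13.1 TPM in astrocytes and 6.28 to 8.87 TPM in microglia. It was lower in every neuron library than in any astrocyte or microglia library, with log2 differences of -0.94 from astrocytes (adjusted p = 1.33e-04) and -0.75 from microglia (adjusted p = 7.11e-04). Neither passed the size threshold, and the difference from astrocytes passed it without astrocyte library 2 (-1.04) or neuron library 3 (-1.0). With 1 library left out at a time, the difference from astrocytes ranged over -1.044 to -0.826. The difference from microglia passed the size threshold under median-of-ratios scaling (-1.28) and under quantile normalization (-1.25). By mean TPM, Tcf7l2 was the highest of these 3 TCF genes in microglia and astrocytes, and Tcf7 in neurons. Lef1, a further gene of that family outside the name pattern, is given below. Axin1 (chr17:26138688-26195811, plus strand), the scaffold of the destruction complex, measured 3.82, 2.83, 4.45, 5.84 and 4.17 TPM in the 5 neuron libraries, 7.37, 2.97, 6.83, 5.99 and 4.2 TPM in the 5 astrocyte libraries and 3.95, 4.02, 6.39, 5.74 and 5.22 TPM in the 5 microglia libraries, with all 3 groups overlapping and no difference passing the test. Axin2, a target gene that feeds back on the pathway, ranged over 1.41 to 3.5 TPM in neurons, 1.88 to 4.05 TPM in astrocytes and 0.05 to 0.29 TPM in microglia. It was called higher in neurons (log2 difference 1.51, SE 0.189, adjusted p = 1.42e-06) and in astrocytes (log2 difference 1.61, SE 0.189, adjusted p = 5.92e-07) than in microglia, and neurons and astrocytes overlapped.

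Other genes of the pathway were read from lists written from general knowledge. Their counts stand beside 12.9% higher and 12.7% lower over all tested genes for neurons against astrocytes, 29.5% and 9.74% for neurons against microglia, and 32.3% and 10.2% for astrocytes against microglia. Among feedback target genes, 9 of 10 were tested, and neurons against astrocytes gave 5 higher and 0 lower (median 1.17, beside -0.03 over all genes). Neurons against microglia gave 5 higher and 1 lower, and astrocytes against microglia 7 higher and 0 lower. The endothelial marker sum was also higher in neurons than in astrocytes, and its part in these counts was not tested. Lef1, a TCF family factor, was at 31.0 ± 7.86 TPM in neurons, 8.67 ± 3.64 TPM in astrocytes and 0.982 ± 0.452 TPM in microglia (mean ± SD, n = 5 each), and it was called higher in neurons than in astrocytes (log2 difference 1.79, SE 0.259, adjusted p = 1.47e-05). Apcdd1, a membrane inhibitor, was at 56.6 ± 12 TPM in neurons, 22.8 ± 8.40 TPM in astrocytes and 1.29 ± 0.530 TPM in microglia (1.32 for neurons against astrocytes). Nkd1, a feedback antagonist that binds Dishevelled, was at 74.2 ± 23.8 TPM in neurons, 30.0 ± 6.63 TPM in astrocytes and 6.16 ± 4.36 TPM in microglia. Ccnd1, which encodes cyclin D1, was at 26.2 ± 9.30 TPM in neurons, 8.93 ± 3.0 TPM in astrocytes and 18.3 ± 6.32 TPM in microglia, with neurons called higher than astrocytes (1.44) and not called against microglia. The 4 tested targets not called between neurons and astrocytes, Tnfrsf19, Znrf3, Myc and Sp5, went the other way, with lower means in neurons. Tnfrsf19 was at 97.2 ± 10.5 TPM in neurons, 141 ± 30.5 TPM in astrocytes and 6.04 ± 1.85 TPM in microglia (-0.51 for neurons against astrocytes, adjusted p = 0.0206). Znrf3 was at 1.91 ± 0.447 TPM in neurons, 4.22 ± 0.695 TPM in astrocytes and 0.62 ± 0.122 TPM in microglia. Sp5 was at 0.71 ± 0.373 TPM in neurons, 1.31 ± 0.260 TPM in astrocytes and 0.038 ± 0.039 TPM in microglia. Myc was the target called lower in neurons than in microglia (-1.51), at 2.57 ± 1.0 TPM in neurons, 5.14 ± 1.59 TPM in astrocytes and 9.42 ± 3.71 TPM in microglia. Of 9 genes known as Wnt-dependent in barrier endothelium, 7 were called higher in neurons than in astrocytes and 0 lower (median 1.89), and 8 were called higher in neurons and 8 in astrocytes than in microglia. Mfsd2a, at 192.9 ± 55.3 TPM in neurons and 189.3 ± 22.3 TPM in astrocytes, was not called between them. Neither was Plvap, at 2.88 ± 0.403 TPM in neurons and 2.05 ± 0.426 TPM in astrocytes. Sox17, an endothelial factor, was at 77.4 ± 20.4 TPM in neurons, 13.0 ± 2.59 TPM in astrocytes and 2.55 ± 0.651 TPM in microglia. Foxf2, a factor of brain vessels, was at 27.1 ± 6.45 TPM in neurons, 7.44 ± 1.27 TPM in astrocytes and 0.720 ± 0.360 TPM in microglia. Abcb1a, which encodes a drug efflux pump of the barrier, was at 55.8 ± 11.4 TPM in neurons, 6.35 ± 0.258 TPM in astrocytes and 1.43 ± 0.812 TPM in microglia. Cldn5 and Slc2a1 of this list are also among the 14 endothelial markers, whose sum moved the same way, and the part of endothelial cells was not tested.

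**Figure D5:**
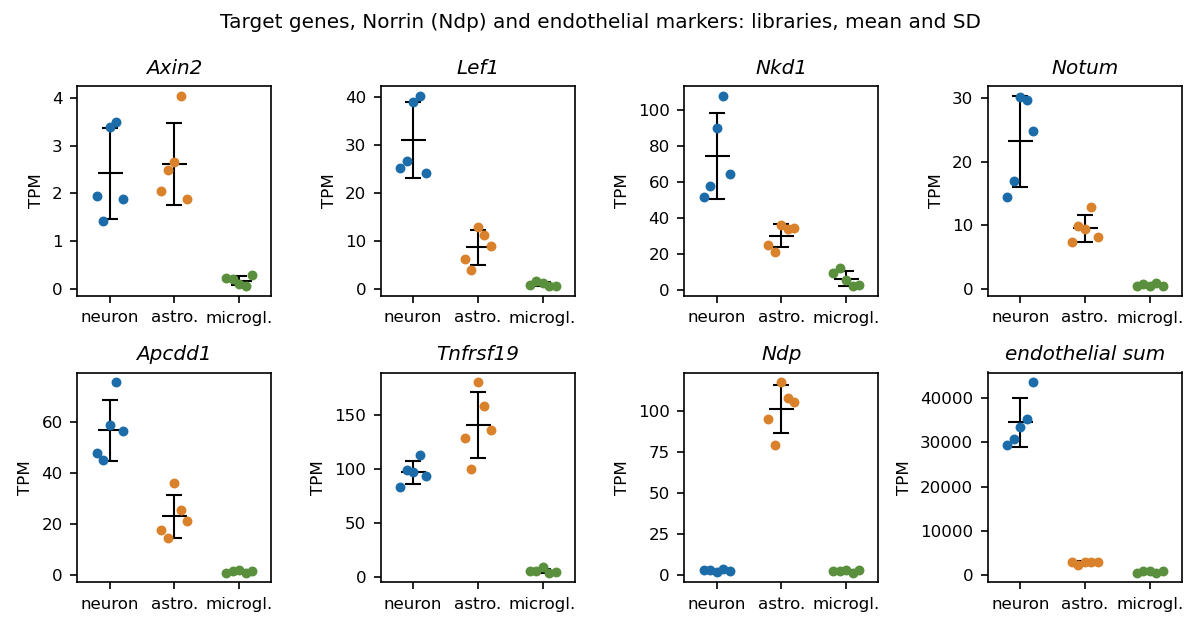
TPM per library (points, 5 per cell type) with mean and SD for 6 Wnt target genes, Norrin (Ndp) and the sum of the 14 endothelial markers. Lef1, Nkd1, Notum and Apcdd1 and the endothelial sum are highest in the neuron libraries, Axin2 overlaps between neurons and astrocytes, and Ndp is highest in the astrocyte libraries.

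The list of ligand processing held Porcn, Wls, Notum, Trabd2b and Norrin (Ndp), itself a ligand. Of these 5 genes, 4 were tested, of which 1 (Notum) was called higher and 2 (Ndp and Porcn) lower in neurons than in astrocytes. Ndp (chrX:16885521-16911774, minus strand) measured 2.68, 2.65, 1.69, 3.3 and 2.49 TPM in the 5 neuron libraries, 95.2, 79.2, 118, 108 and 106 TPM in the 5 astrocyte libraries and 2.07, 2.38, 3.1, 1.17 and 2.83 TPM in the 5 microglia libraries. Astrocytes stood apart from both other groups (neurons against astrocytes, log2 difference -4.84, SE 0.185, adjusted p = 5.03e-13, and astrocytes against microglia, log2 difference 4.97, SE 0.185, adjusted p = 1.16e-13). Porcn, which attaches the lipid to Wnt proteins, was at 13.9 ± 3.76 TPM in neurons, 31.0 ± 3.03 TPM in astrocytes and 5.20 ± 0.801 TPM in microglia and was called lower in neurons than in astrocytes (-1.13). Notum, an enzyme that removes that lipid, was at 23.2 ± 7.19 TPM in neurons, 9.51 ± 2.09 TPM in astrocytes and 0.596 ± 0.221 TPM in microglia and was called higher in neurons (1.17). Wls, the carrier of Wnt proteins to the surface, was at 59.5 ± 15.3 TPM in neurons, 95.4 ± 25.0 TPM in astrocytes and 56.8 ± 7.87 TPM in microglia and was called in no comparison. Partners of Frizzled receptors followed more than one order. Of 10 other receptors, 5 were tested, with 1 called higher in neurons than in astrocytes, 4 higher in neurons and 4 higher in astrocytes than in microglia, and 0 lower in each. Adgra2 and Reck together let endothelial cells respond to Wnt7a and Wnt7b. Adgra2 was at 3.23 ± 0.749 TPM in neurons, 0.802 ± 0.256 TPM in astrocytes and 0.166 ± 0.0910 TPM in microglia. Reck was at 9.22 ± 1.95 TPM in neurons, 4.23 ± 0.730 TPM in astrocytes and 0.956 ± 0.373 TPM in microglia. The difference of neurons from astrocytes was called for Adgra2 (log2 difference 1.22, SE 0.143, adjusted p = 1.27e-06), and that of Reck was under the size threshold (0.96). The endothelial marker sum was also higher in the neuron libraries, and its part in Notum, Adgra2 and Reck was not tested. Tspan12, which assists Fzd4 in Norrin signalling, was at 18.1 ± 3.42 TPM in neurons, 25.4 ± 1.56 TPM in astrocytes and 1.75 ± 0.615 TPM in microglia, and Ryk, a Wnt receptor related to kinases, was at 12.7 ± 1.39 TPM in neurons, 25.1 ± 4.74 TPM in astrocytes and 4.01 ± 0.310 TPM in microglia. Neither was called between neurons and astrocytes.

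Among 12 other extracellular modulators, 8 were tested, with 3 called higher and 1 lower in neurons than in astrocytes, and 6 higher in neurons and 6 in astrocytes than in microglia. Gpc4, a glypican released by astrocytes, was the one lower in neurons (-1.37), at 2.47 ± 1.06 TPM in neurons, 7.90 ± 2.39 TPM in astrocytes and 0.248 ± 0.156 TPM in microglia. Dkkl1 was at 14 ± 4.01 TPM in neurons, 5.64 ± 1.66 TPM in astrocytes and 0.884 ± 0.662 TPM in microglia (1.17 for neurons against astrocytes), and Cthrc1, a secreted factor tied to planar polarity, at 81.0 ± 22.9 TPM in neurons, 64.5 ± 13.6 TPM in astrocytes and 4.99 ± 1.77 TPM in microglia, not called between neurons and astrocytes. Of the 8 Dishevelled genes and modulators, 2 were called higher in neurons than in astrocytes, Nkd1 and Dact2, with 5 higher in neurons and 6 in astrocytes than in microglia. Of the 14 genes of the destruction complex, 1 was called higher and 1 lower in neurons than in astrocytes, with a median of 0.02, and 3 were higher in neurons and 3 in astrocytes than in microglia, a smaller share than over all genes in both comparisons. The 1 higher was Csnk1e, a casein kinase, at 67.5 ± 11.4 TPM in neurons, 33.0 ± 4.16 TPM in astrocytes and 192 ± 55.9 TPM in microglia (1.0 for neurons against astrocytes). Csnk1e was also the gene of this list called lower than in microglia, both in neurons (-1.46) and in astrocytes (-2.46). Apc2, a relative of Apc found mainly in the nervous system, was the 1 lower in neurons (-1.04), at 2.97 ± 1.28 TPM in neurons, 6.89 ± 1.31 TPM in astrocytes and 0.606 ± 0.279 TPM in microglia. Of 11 nuclear partners, Lef1 was called higher and Tle4, a co-repressor, lower in neurons than in astrocytes, with Tle4 at 3.76 ± 0.636 TPM in neurons, 14.4 ± 4.96 TPM in astrocytes and 4.44 ± 0.977 TPM in microglia. For this list 3 genes were higher in neurons and 6 in astrocytes than in microglia. Of 8 planar polarity genes, 6 were tested, and Prickle1 and Prickle3 were called higher and Vangl2 lower in neurons than in astrocytes. Vangl2, a core protein of that system, was at 2.09 ± 0.529 TPM in neurons, 7.74 ± 2.84 TPM in astrocytes and 1.51 ± 0.413 TPM in microglia (neurons against astrocytes, log2 difference -1.45, SE 0.215, adjusted p = 1.87e-05), and Prickle1 at 8.46 ± 1.58 TPM in neurons, 3.03 ± 0.475 TPM in astrocytes and 2.22 ± 1.31 TPM in microglia. Of the genes of these lists, Csnk1e and Myc were the ones called lower than in microglia. Lists overlap, since Lef1, Nkd1, Notum, Apcdd1, Znrf3 and Rnf43 each stand in 2 of them.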

How the data were processed

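Per the labels' protocols, column-purified RNA gave polyA-enriched, PCR-amplified cDNA libraries, sequenced on a NovaSeq as paired reads. The submitters' processing notes name the mm10 genome, RSEM 1.2.28, STAR 2.7.1a, DESeq2 1.36.0 and Trim Galore 0.6.4, without their settings. The authors deposited TPM per gene and library, each column summing to 1000000 within rounding, so depth is unknown and paralogs may share reads. No 2 libraries held identical values.

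TPM values were tested as log2(TPM + 1) with limma 3.58.1 (R 4.3.3), a variance trend and 1 mean per cell type over all 15 libraries, for the 13351 genes that reached 1 TPM in 5 or more libraries. The thresholds were a Benjamini-Hochberg adjusted p of 0.05 and a log2 difference of 1. The fit was tested on simulated data. The name pattern uses no expression value, but the set it defines, the lists and the tests were chosen with earlier results of these data known. Values in every library are given for members called at least once with a mean of at least 5 TPM in a cell type, and for the highest member of each family. Genes of other lists are named where they are among the 3 largest differences or go against their list, and Ccnd1, Wls, Reck, Ryk, Tnfrsf19, Znrf3 and Sp5 were added after their values were seen. Coordinates are those of GENCODE vM21 (52 of 52 members), and promoter windows those of RefSeq.

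Replicate numbers are shared between cell types. After removal of group means, libraries of 1 number correlated at 0.216 to 0.382 for neurons and microglia, all above a rule of 0.1. The range was -0.033 to 0.233 for neurons and astrocytes and -0.011 to 0.249 for astrocytes and microglia, on both sides of that rule. Libraries 1 and 2 of neurons and of microglia also shared high oligodendrocyte marker sums. The labels tie no number to an animal, so these correlations cannot settle whether the numbers pair libraries. Other settings tried were no filter, a filter of 5 TPM, a pseudocount of 0.1, median-of-ratios and quantile scaling, fits of 2 cell types, the replicate block, sets of libraries left out and each library left out in turn. Python 3.11.15, numpy 2.4.6, pandas 2.3.3 and matplotlib 3.10.9 were also used.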

Additional observations from a re-analysis of the deposited data

Results flagged for a closer look

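Of the values of the 33 tested members in each cell type, 99 groups of 5 libraries were examined for a library far from the others by Dixon's test, and 2 were set apart at its 95% critical value, where chance sets apart about 1 in 20. Both were in microglia library 2. Fzd6 was at 1.78 TPM there, while the other 4 microglia libraries lay between 0.37 and 0.7 TPM, with a gap of 0.766 of the whole range. Tcf7l2 was at 6.28 TPM there, while the other 4 lay between 8.12 and 8.87 TPM, with a gap of 0.71 of the whole range.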

How the results depend on the processing

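Over 25 alternative settings, 72 differences of members were followed. These were the 59 called ones, and uncalled ones with an adjusted p below 0.05 and a mean of at least 5 TPM in a cell type. They gave 1767 values. Of these, 1711 kept their direction and call, 32 (in 15 differences) were no longer called, 20 became called and 4 turned sign. Member differences outside the 72 are not in these totals, and some of them also became called. Among those were Fzd3 and Wnt11 in astrocytes against microglia and Sfrp1 in neurons against astrocytes. The 4 that turned sign were Lrp6 in neurons against microglia (-0.015, median-of-ratios), Ctnnb1 in astrocytes against microglia (-0.32, median-of-ratios, and -0.081, quantile) and Wnt7a in neurons against microglia (-0.037, quantile). The cause was not tested. The filter of 5 TPM left 15 members tested, and so gave 7 lower in neurons than in astrocytes, 8 higher in neurons and 11 higher in astrocytes than in microglia, and 7 enriched in astrocytes. Quantile normalization gave 11 members higher and 1 lower in neurons than in microglia and 1 lower in astrocytes than in microglia. Median-of-ratios scaling gave 1 lower in neurons than in microglia, and a pseudocount of 0.1 gave 1 lower in astrocytes than in microglia. Without each library in turn, members called ranged over 5 to 7 higher and 11 to 14 lower in neurons than in astrocytes, 19 to 19 higher in neurons and 22 to 26 higher in astrocytes than in microglia, and those enriched over 5 to 7 in neurons, 11 to 13 in astrocytes and 0 to 0 in microglia. With the replicate block, member counts were 5 higher and 11 lower in neurons than in astrocytes, 19 higher and 0 lower in neurons than in microglia, and 24 higher and 0 lower in astrocytes than in microglia, and it changed no other call of a member. Levels near or below 1 TPM limit what can be said of the 19 untested members.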
